A study of Mus musculus with 15 samples.

Results

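The 10 genes described here are transcripts of cytotoxic lymphocytes in mouse blood. They are Gzma, Gzmb, Prf1 and Nkg7, which serve the cytolytic granule, Klrb1c, Ncr1, Klrk1 and Klrd1, which encode surface receptors of natural killer (NK) cells, and Eomes and Tbx21, which encode transcription factors. They were taken by symbol from the 55416 gene identifiers of the count files, and all 10 were found. Whole blood RNA was sequenced from 15 C57BL/6 mice, with 1 library per mouse and 5 mice per group. Untreated mice received neither antibody nor surgery, and the other groups received 2 doses of αCTLA-4, an antibody that blocks a checkpoint receptor of T cells, with either early or late neck dissection (ND), the surgical removal of the lymph nodes that drain the tongue. Every sample carries the same description of 4MOSC1 tumor cells placed in the tongue and left for 10 days, so whether the untreated mice bore tumors rests on that shared label. 4MOSC1 is a single mouse oral squamous carcinoma line. The sources differ on whether the late ND mice were bled before or after their operation. Below, "late ND" and "after late ND" name the group only and do not place the bleeding after the operation. In the paper's design both operations followed the last αCTLA-4 dose, the late one after a longer delay. The comparison of interest was whether this longer delay altered the RNA of circulating cells.

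NK cells and cytotoxic T cells kill a target by releasing granules into the space between the cells. Perforin opens a path through the membrane and granzymes then cleave proteins inside the target. Receptors on NK cells weigh activating against inhibitory ligands, whereas the T-box factors T-bet (Tbx21) and Eomesodermin (Eomes) direct the development of these cells and the expression of many of their effector genes. Of the 10 genes, Ncr1 and Klrb1c are the most restricted to NK cells and related innate lymphocytes, whereas granzymes, perforin, Nkg7, Klrk1, Klrd1 and both factors are also made by activated CD8 T cells.

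The sequence just upstream of these genes was also read. RefSeq promoters of build GRCm38.p6 were available for 9 of the 10 genes, and Klrd1 was not matched. The core letters bound by RUNX factors, ACCACA or TGTGGT on the other strand, were present in the 250 bases before the start of 7 of these 9 genes (Gzma, Gzmb, Prf1, Nkg7, Klrb1c, Ncr1 and Klrk1), against 14% of all 32851 promoters of the same length and 15.9% of 27025 genes. The T-box half-site AGGTGTGA or TCACACCT was present in 1 of the 9, Nkg7, against 1.12% of promoters. A match of letters is a description and does not show binding. What part these letters play in the levels of the genes was not tested. The 4 sequences that follow are those of the granzyme with the highest level (Gzma, chr13:113100982-113101231, minus strand), the genes with the smallest p-values between the ND groups (Gzmb, chr14:56262335-56262584, minus strand, and Ncr1, chr7:4337465-4337714, plus strand) and the gene with both motifs (Nkg7, chr7:43436888-43437137, plus strand), each 5′ to 3′ with either motif in capitals on either strand. In Nkg7 the motifs did not overlap.
Gzma: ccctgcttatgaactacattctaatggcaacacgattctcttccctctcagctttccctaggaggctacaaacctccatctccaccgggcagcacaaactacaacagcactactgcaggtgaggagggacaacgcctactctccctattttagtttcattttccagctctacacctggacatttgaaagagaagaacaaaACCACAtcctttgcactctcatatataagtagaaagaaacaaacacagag
Gzmb: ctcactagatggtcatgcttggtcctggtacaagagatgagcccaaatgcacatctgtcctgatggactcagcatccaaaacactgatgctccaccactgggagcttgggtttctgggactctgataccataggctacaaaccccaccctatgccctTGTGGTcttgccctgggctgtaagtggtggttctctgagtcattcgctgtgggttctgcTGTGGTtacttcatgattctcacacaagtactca
Ncr1: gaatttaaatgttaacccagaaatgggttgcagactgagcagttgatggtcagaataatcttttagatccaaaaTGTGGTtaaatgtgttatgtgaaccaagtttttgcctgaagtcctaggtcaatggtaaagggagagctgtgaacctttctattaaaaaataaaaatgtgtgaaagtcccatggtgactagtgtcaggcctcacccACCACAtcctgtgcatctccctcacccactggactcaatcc
Nkg7: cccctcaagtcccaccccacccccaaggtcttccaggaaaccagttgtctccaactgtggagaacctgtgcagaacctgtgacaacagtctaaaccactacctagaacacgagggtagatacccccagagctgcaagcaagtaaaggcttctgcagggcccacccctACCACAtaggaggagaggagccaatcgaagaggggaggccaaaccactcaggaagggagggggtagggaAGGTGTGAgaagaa

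The gene counts of a library totaled 5527108 to 13924361, with medians of 6266684 in untreated, 6727311 after early ND and 10929570 after late ND. Hemoglobin transcripts took 31.6% to 61.7% of these counts in untreated mice, 38.3% to 64.1% after early ND and 14.9% to 29.3% after late ND, so levels are given as CPM, the count of a gene scaled to the size of its library after normalization by the trimmed mean of M-values (TMM). The ribosomal 18S transcript was under 5000 CPM without TMM in 3 libraries, untreated 2, late ND 2 and late ND 3. The summed CPM of 10 neutrophil markers was 4368 to 10972 in untreated, 2355 to 7033 after early ND and 5376 to 14428 after late ND, and that of 9 T cell markers was 260 to 394, 191 to 356 and 204 to 263. All 7 genes of the NK cell marker list, which are all among the 10, had counts in every library. In whole blood, fewer cells of a type and less RNA per cell cannot be told apart.

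All 10 genes were detected in every library, with 8 to 1072 counts per gene and mouse. On the scale of CPM per kilobase of exon, averaged over the 15 libraries, Gzma had the highest level at 29.9, followed by Nkg7 at 23.8, Klrd1 at 13.7, Gzmb at 8.21 and Ncr1 at 7.07. Prf1 followed at 5.42, Klrk1 at 2.71, Klrb1c at 2.26, Tbx21 at 2.16 and Eomes at 1.13. Each gene's range over the 15 mice overlapped that of its neighbor in this order. Within libraries, Nkg7 lay above Klrd1, Klrd1 above Gzmb, Prf1 above Klrk1 and Tbx21 above Eomes in all 15, and Gzma lay above Nkg7 in 14. Ncr1 lay above Prf1 in 13, Gzmb above Ncr1 in 12 and Klrk1 above Klrb1c in 11, whereas Klrb1c lay above Tbx21 in 8 and was not separated from it. Of the 36 pairs further apart in the order, 27 had ranges that did not overlap. For example, the lowest Gzma value per kilobase, 20.04, lay above the highest Gzmb value, 12.8, and the lowest Klrd1 value, 7.53, lay above the highest Klrk1 value, 5.40.

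Granule genes came first. Gzma encodes granzyme A, a tryptase of the granule, and lies at chr13:113230355-113237524 on the minus strand (GRCm39). Its CPM in untreated mice 1 to 5 was 39.4, 49.1, 63.9, 54.4 and 31.0. After early ND it was 71.7, 47.9, 33.3, 58.8 and 38.9, and after late ND 44.0, 41.0, 47.0, 39.6 and 34.2. Late ND mice all lay inside the range of both other groups. Gzmb, at chr14:56496295-56499717 on the minus strand, encodes granzyme B, which cleaves substrates after aspartate and triggers caspases. Untreated mice had 8.84, 9.60, 18.4, 16.9 and 8.22 CPM of Gzmb. Early ND mice had 16.3, 13.1, 11.4, 13 and 13.1, and late ND mice 11.4, 9.54, 9.68, 9.67 and 7.71. In the pairwise fit, 4 of the 5 late ND mice lay below every early ND mouse. Untreated mice ranged from 8.22 to 18.4, and late ND 5 lay below all of them. Prf1, which encodes perforin at chr10:61133546-61140461 on the plus strand, ranged from 11.8 to 22 CPM in untreated, 9.58 to 19.4 after early ND and 10.6 to 15.4 after late ND. Nkg7, at chr7:43086497-43087678 on the plus strand, encodes a granule membrane protein needed for efficient granule release. Its CPM in untreated mice was 23.3, 23.5, 26.2, 26.7 and 23.2, the tightest group of any of the 10 genes. It was 23.6, 25.2, 15.7, 18 and 17.2 after early ND and 21.1, 22.7, 22.9, 22.1 and 16.2 after late ND. Early ND 1 and 2 had values within those of untreated mice, early ND 3, 4 and 5 lay below them, and late ND 5 stood below the other late ND mice.

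Receptor genes followed. Ncr1 encodes NKp46, an activating receptor that marks NK cells, at chr7:4340710-4348171 on the plus strand. Untreated mice had 8.84, 8.21, 14.7, 11.7 and 8.22 CPM of Ncr1. Early ND mice had 17.2, 16.1, 6.43, 15.5 and 12.4, and late ND mice 9.08, 9.22, 10.5, 7.98 and 9.41. All early ND mice except early ND 3 lay above every late ND mouse, and early ND 3 lay below all of the other 14. Klrk1 encodes NKG2D, an activating receptor for stress-induced ligands, at chr6:129587286-129600827 on the minus strand. Its CPM was 12.5, 22, 38.8, 19.1 and 15.3 in untreated mice, 30.7, 22.7, 15.7, 17 and 12.9 after early ND and 19.1, 17.1, 18, 17 and 14.7 after late ND. The highest Klrk1 values belonged to untreated 3 and early ND 1. Klrd1, which encodes CD94, the partner of NKG2A and related receptors, at chr6:129568677-129575738 on the plus strand, ranged from 10.1 to 29.1 CPM in untreated, 11.6 to 25.3 after early ND and 14 to 21.6 after late ND. Klrb1c encodes the NK1.1 antigen at chr6:128755448-128766178 on the minus strand, and ranged from 3.22 to 9.78, 3.15 to 11.1 and 5.17 to 7.80 CPM. Of its exon bases, 12.9% are shared with Gm44511 on the same strand, so its counts are less certain. Klrb1c, Klrd1 and Klrk1 all lie in the NK gene complex of chromosome 6.

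Transcription factor genes had the lowest levels per kilobase. Eomes, at chr9:118307280-118315200 on the plus strand, ranged from 3.13 to 8.34 CPM in untreated, 2.74 to 7.13 after early ND and 3.28 to 5.69 after late ND. Genes on the opposite strand cover 14.97% of its exon bases, and the strand setting of the counting is not given in the sources used here. Tbx21, at chr11:96988897-97006158 on the minus strand, ranged from 2.58 to 6.76, 3.97 to 6.96 and 5.05 to 6.17 CPM. For both factors the late ND range lay inside the range of all untreated and early ND mice together.

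**Figure D1:**
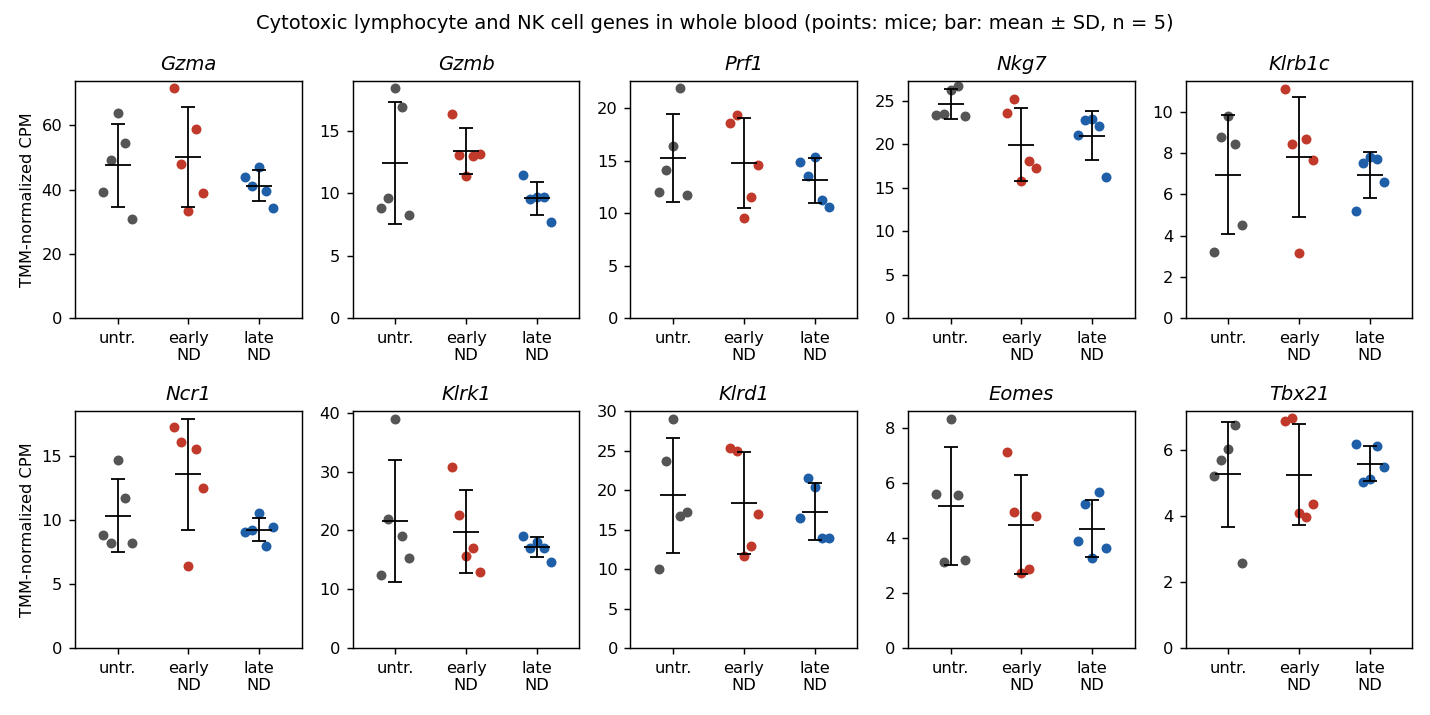
TMM-normalized CPM of the 10 genes, with 1 point per mouse, for the 5 untreated, 5 early ND and 5 late ND mice; bars give the mean ± SD, and each panel has its own axis from 0. Late ND mice cluster closely in most panels, and for Gzmb they sit between 7.71 and 11.4.

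Between late and early ND, 0 of the 10 genes passed the adjusted threshold of 0.05 in edgeR's quasi-likelihood test (Benjamini-Hochberg over 13315 genes), against 4.98% of all genes tested. The largest differences were in Ncr1 and Gzmb, both lower after late ND. Gzmb was 13.4 ± 1.80 CPM (SD, n = 5) after early ND and 9.61 ± 1.32 after late ND. The log2 fold change was −0.46 (SE 0.14, 95% interval −0.75 to −0.16), with an edgeR adjusted p of 0.0707. Ncr1 was 13.5 ± 4.34 and 9.24 ± 0.904 CPM, a log2 fold change of −0.51 (SE 0.21, 95% interval −0.97 to −0.04) with an edgeR adjusted p of 0.173. These were the 2 genes of the 10 at an unadjusted p under 0.05, a mark that 9.33% of all genes tested passed as lower and 23.8% in either direction. The other genes had log2 fold changes from −0.25 (Gzma, edgeR adjusted p = 0.445) to 0.10 (Nkg7, edgeR adjusted p = 0.755). In all, 8 of the 10 fold changes were below 0 and 2, those of Nkg7 and Tbx21, above, with a median of −0.14 against 0.01 over all genes tested, and under scaling by library totals, which moved the median of all genes to 0.86, all 10 were above 0, with 8 of the 10 below that median. No gene had groups that did not overlap, which 3.63% of all genes tested did with late ND higher and 2.46% with late ND lower. Of the T cell markers, 9 of 9 were below 0 in the same comparison with none called and a median of −0.26, and whether the number of T cells or NK cells plays a part was not tested.

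Without early ND 3, the mouse with the lowest Ncr1, Gzmb and Ncr1 passed the threshold as lower after late ND, Gzmb at −0.51 (edgeR adjusted p = 0.0415) and Ncr1 at −0.69 (edgeR adjusted p = 0.0143). In that fit 1610 of all 13676 genes tested were called, 553 of them lower. DESeq2 on all 10 libraries also called Gzmb, at −0.49 with an adjusted p of 0.0312, but not Ncr1, at −0.54 with an adjusted p of 0.120. It called 1439 of 13016 genes, 670 of them lower. Without the libraries poor in 18S none of the 10 was called, and 4 genes were called in all. That fit left out late ND 2 and late ND 3, the deepest libraries, and so held fewer late ND mice. The level of 18S, the depth and the number of mice cannot be told apart there.

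Against untreated mice, late ND mice showed no called difference in any of the 10 genes, where 3.0% of the 13547 genes tested differed. Fold changes were small. Of the 10, 9 were below 0 and Tbx21 was above, with a median log2 fold change of −0.19 against 0.00 over all genes tested, and library totals placed all 10 above 0, with 9 of the 10 below the median of all genes, 0.91. They ranged from −0.36 for Gzmb (SE 0.23, edgeR adjusted p = 0.476) to 0.09 for Tbx21 (SE 0.22, edgeR adjusted p = 0.902). Nkg7 had the smallest p. It averaged 24.6 ± 1.72 CPM in untreated and 21.0 ± 2.79 after late ND (SD, n = 5), a log2 fold change of −0.22 (SE 0.12, 95% interval −0.48 to 0.04) with an edgeR adjusted p of 0.379, and all 5 late ND mice were below every untreated mouse on the CPM scaled over the 15 libraries. With TMM over the 10 libraries of this comparison, 4 of the 5 were, and the groups overlapped for all 10 genes, whereas 2.51% of all genes tested had late ND wholly higher and 2.81% wholly lower on that scaling. None of the 10 passed an unadjusted p under 0.05 in edgeR, where 17.0% of all genes tested did, 8.69% as higher and 8.28% as lower, and DESeq2 called 0 of the 10. In the same comparison all 9 T cell markers were below 0, with a median of −0.40, and 8 of them passed an unadjusted p under 0.05 and 1 the adjusted threshold.

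Early ND mice against untreated mice gave no called gene among the 10, nor among all 12151 genes tested, 0% of which were called, with 4.44% at an unadjusted p under 0.05 in edgeR, 2.11% as higher and 2.33% as lower. Among the 10 genes 0 had an unadjusted p under 0.05 in edgeR and 0 were called by DESeq2. Here 5 of the 10 fold changes were below 0 and 5 above, with a median of −0.01 against 0.00 over all genes tested. Library totals turned those of Prf1, Klrk1 and Eomes to above 0. Nkg7 was 19.95 ± 4.16 CPM after early ND (SD, n = 5), a log2 fold change of −0.30 (SE 0.14, edgeR adjusted p = 0.938), with 3 of 5 mice below every untreated mouse. Ncr1 had a log2 fold change of 0.40 (SE 0.26, edgeR adjusted p = 0.938), 3 of 5 early ND mice above every untreated mouse and early ND 3 below. Both comparisons against untreated mice share those 5 libraries, and both comparisons of the late ND group share its libraries. Across the 3 comparisons each of the 30 intervals of 95% lay between −1 and 1 on the log2 scale and the outermost bounds were −0.97 and 0.96, both of Ncr1.

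**Figure D2:**
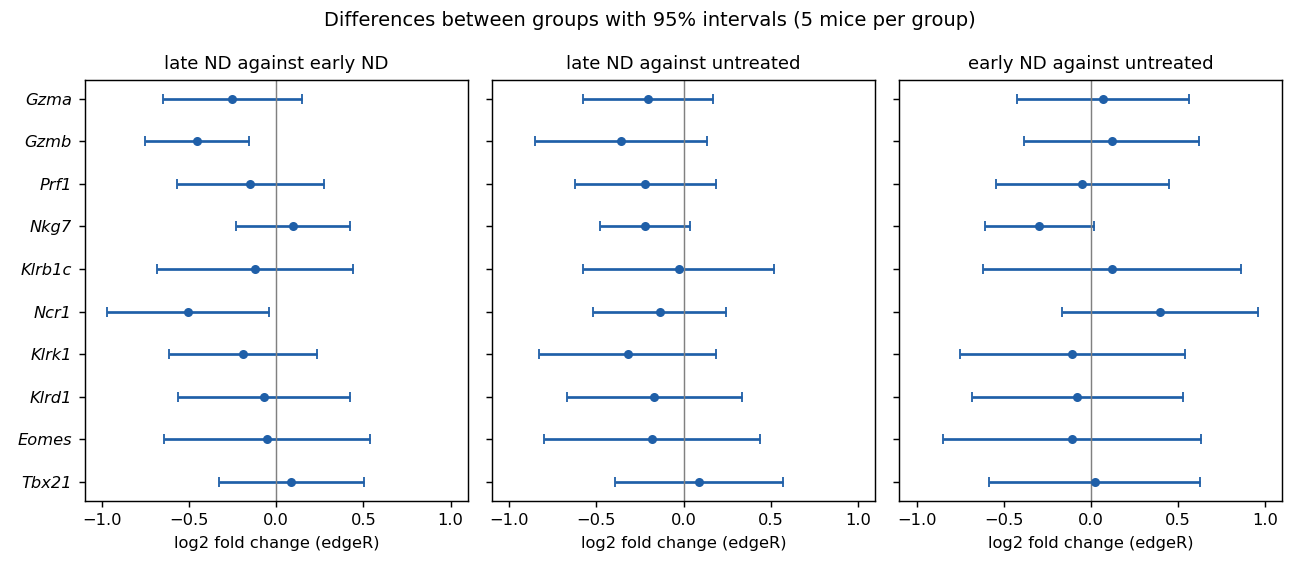
Log2 fold changes of the 10 genes from edgeR in the 3 comparisons, with 5 mice per group; points are estimates, bars 95% intervals, and the vertical line marks no difference. Only the intervals of Gzmb, −0.75 to −0.16, and Ncr1, −0.97 to −0.04, between late and early ND leave out 0, and neither passed the adjusted threshold.

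The spread of these genes between mice was smallest in the late ND group. The SD as a percent of the mean (coefficient of variation, CV) over the 5 mice had a median over the 10 genes of 34.0% in untreated, 31.5% after early ND and 13.5% after late ND. Counting error alone gives medians of 13.2%, 12.4% and 7.53%, with the lowest value in the late ND libraries, which are deeper. The measured CV was above the counting value for 9, 10 and 9 of the 10 genes. Klrk1 spread most in untreated mice (CV 47.9%) and Nkg7 least (6.99%), whereas after late ND Klrk1 had a CV of 9.65%. For 9 of the 10 genes the CV was higher in untreated than in late ND mice. The exception was Nkg7. For 9 of the 10 it was also higher after early than after late ND, Gzmb being the exception at 13.5% and 13.7%. Among the other 7383 genes tested whose mean level lay in the range of the 10, from 4.68 to 46.3 CPM, the median CV was 19.5%, 19.2% and 14.8%. The median CV of the 10 genes was thus above that of genes of like level in untreated and early ND mice. In late ND mice it was close to it, at 13.5% against 14.8%. Leaving out each mouse in turn gave medians of 29.2% to 36.6% in untreated, 24.4% to 36.0% after early ND, the lowest of these without early ND 3, and 11.1% to 15.5% after late ND. The late ND values lay on both sides of 14.8%, which was not recomputed with mice left out. These differences in spread were not tested.

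**Figure D3:**
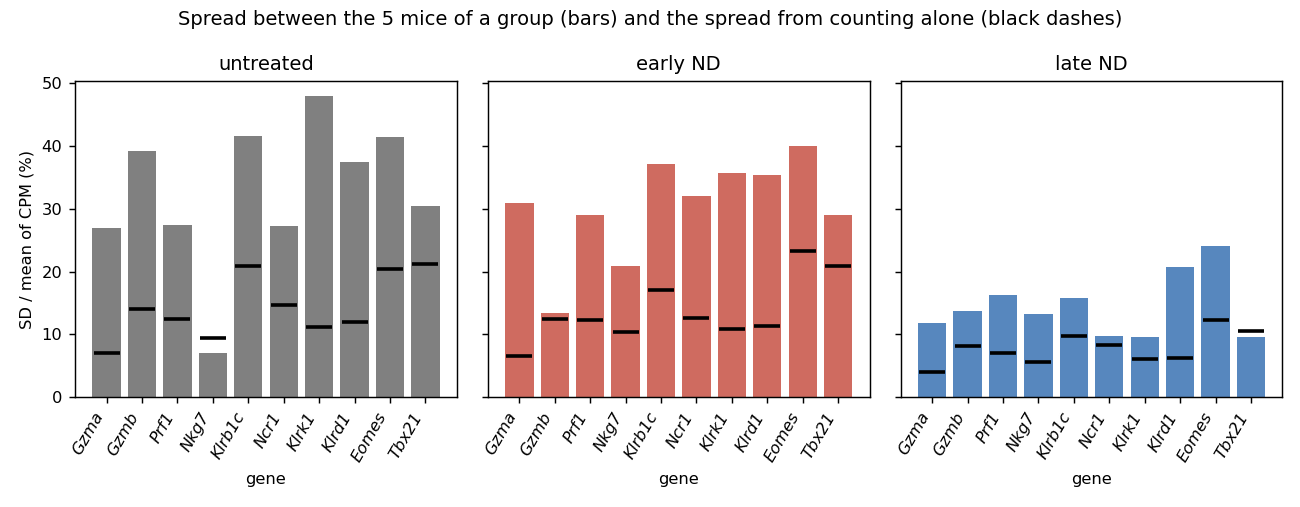
CV of CPM over the 5 mice of each group for each of the 10 genes (bars, percent), with the CV expected from counting alone as black dashes. Median bars are 34.0% in untreated, 31.5% after early ND and 13.5% after late ND.

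Levels of the 10 genes were correlated from mouse to mouse. Over the 15 libraries each of the 45 pairs was positively correlated in log2 CPM, with Pearson r from 0.30 (Nkg7 and Ncr1) to 0.80 (Klrk1 and Klrd1) and a median of 0.56. After the group means were removed the median was 0.62 and the lowest 0.39, so that the pattern was present among mice of the same group. All points of such a correlation share a library, its depth and its scaling factor. Gzma and Gzmb correlated at 0.78, Gzmb and Prf1 at 0.69, and Eomes and Tbx21 at 0.59. To order the libraries, each gene was centered and scaled over the 15 libraries and the 10 values averaged. Untreated 3 (1.36) and early ND 1 (1.32) had the highest means, and early ND 1 ranked among the top 5 libraries for each of the 10 genes. Early ND 3 (−1.26) and untreated 5 (−0.92) had the lowest, and early ND 3 ranked among the bottom 5 for 9 of the 10. Late ND libraries lay in between, from −0.78 to 0.01. Over the 15 libraries this mean had a Pearson r of −0.09 with the gene count total, 0.24 with the hemoglobin share and −0.14 with the level of 18S. The libraries with the lowest means were also the richest in transcripts of skin glands. The summed CPM of 6 skin gland markers was 554 in early ND 3, 1010 in untreated 5 and 704 in late ND 5. In the other libraries it was 63.9 to 271. What part these transcripts play was not tested.

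**Figure D4:**
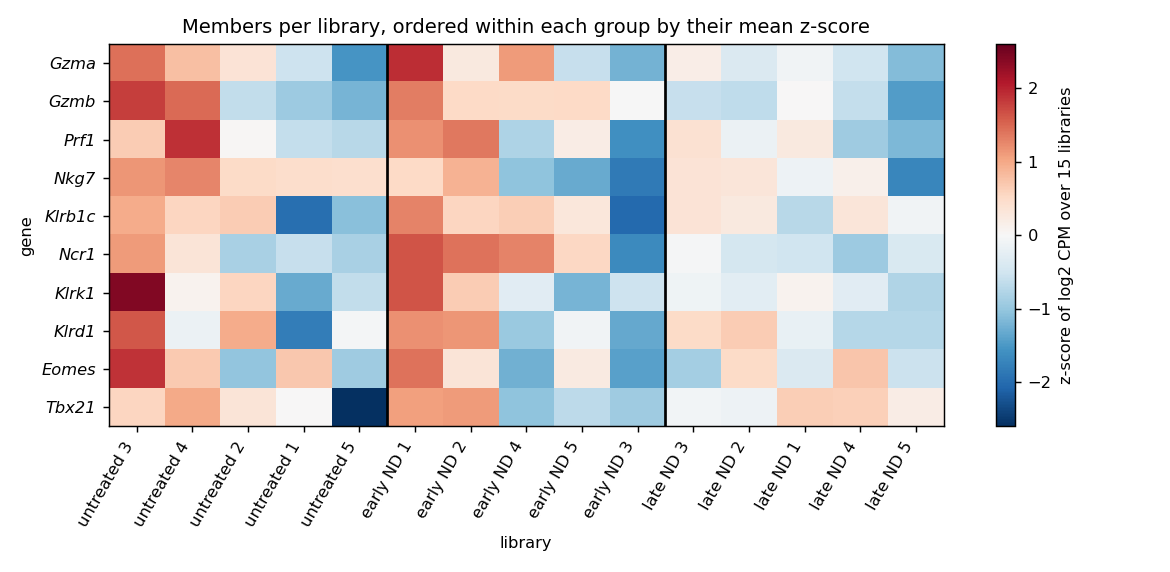
Level of each of the 10 genes in each of the 15 libraries as a z-score of log2 CPM over all libraries (red high, blue low), ordered within each group by the mean z-score. Untreated 3 and early ND 1 are high in nearly all rows, early ND 3 and untreated 5 low, and late ND libraries are paler.

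Among 11902 genes with at least 20 counts on average, the mean of the 10 was matched most closely by Klra4 (Pearson r 0.87, Spearman rho 0.90), Adamts14 (0.86, 0.85), Foxj3 (0.86, 0.81), Klre1 (0.86, 0.86) and Gem (0.84, 0.85). Klra4 and Klre1 encode receptors of NK cells from the same complex of chromosome 6, and Klra4 belongs to the Ly49 family of near-identical genes, among which reads can be misassigned. Adamts14 encodes a secreted protease, Foxj3 a forkhead transcription factor and Gem a small GTP-binding protein. Without untreated 3 and early ND 1, the libraries furthest from the median, the r values of these 5 genes were 0.85, 0.75, 0.89, 0.76 and 0.73. Klra4 averaged 5.41 ± 3.36 CPM in untreated, 4.80 ± 1.87 after early ND and 4.29 ± 1.38 after late ND (SD, n = 5). Over whole lists, the median r with this mean was 0.60 for 18 further NK cell receptors, 0.53 for 9 T cell markers, 0.43 for 6 B cell markers, −0.06 for 7 monocyte markers, −0.38 for 10 neutrophil markers and −0.56 for 3 markers of skin glands, with −0.00016 over all genes compared. It was 0.57 for 5 ligands of the receptors and 0.48 for 2 cytokines made by the cells. For 7 further granule genes it was 0.23, for 12 adaptors and signaling genes 0.21, for 12 cytokines and receptors that sustain the cells 0.14 and for 7 further transcription factors 0.02. Among the remaining cell markers it was 0.16 for 8 erythroid, 0.13 for 5 platelet and −0.23 for 5 pan-leukocyte genes.

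The share of T cell transcripts gives a scale within each library. The summed CPM of the 10 genes per summed CPM of the 9 T cell markers was 0.522 ± 0.122 in untreated, 0.574 ± 0.103 after early ND and 0.617 ± 0.0524 after late ND (SD, n = 5), ranges of 0.399 to 0.670, 0.456 to 0.734 and 0.579 to 0.709 that overlapped. Ratios between granule genes were taken in the same way. Gzma exceeded Gzmb by 4.00 ± 0.774 times in untreated, 3.70 ± 0.760 after early ND and 4.30 ± 0.377 after late ND in CPM. Gzmb per Nkg7, a ratio of CPM, was 0.496 ± 0.160, 0.683 ± 0.0941 and 0.460 ± 0.0517, with late ND values from 0.420 to 0.543 and early ND values from 0.520 to 0.760. This ratio sets the smallest p of the 10 between the ND groups against the highest fold change, so it repeats those results. In the same order, Gzma per Prf1 was 3.15 ± 0.591, 3.51 ± 1.05 and 3.16 ± 0.227. Gzmb per Prf1 was 0.801 ± 0.183, 0.952 ± 0.206 and 0.738 ± 0.0854, and Ncr1 per Klrd1 0.581 ± 0.209, 0.760 ± 0.251 and 0.547 ± 0.0899. All these ranges overlapped.

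Wider lists of the cytotoxic and NK cell machinery held 91 genes, the 10 included, in 7 roles. Of these, 80 were tested between late and early ND, and 1 was called higher and 2 lower, against 2.50% and 2.48% of all genes tested. The median log2 fold change of the 80 was −0.08, with 34 above and 46 below 0. Itga2 and Cd226 were lower in every late ND mouse than in any early ND mouse, and Jak3 was higher in every one. Of all genes tested, 2.46% had late ND wholly lower and 3.63% wholly higher, with TMM over the libraries compared. Itga2 encodes the α2 integrin chain, recognized on NK cells by the DX5 antibody and present on platelets too. It was 28.9 ± 4.15 CPM after early ND and 15.2 ± 3.26 after late ND (SD, n = 5), a log2 fold change of −0.91 (SE 0.16, edgeR adjusted p = 0.0126). Cd226 encodes DNAM-1, an activating receptor found on NK cells, T cells and platelets. It was 287 ± 70.9 and 173 ± 19.5 CPM, a log2 fold change of −0.71 (SE 0.18, edgeR adjusted p = 0.0416). Jak3 encodes a kinase that signals for receptors with the common γ chain in many leukocytes. It was 68.4 ± 5.44 and 97.4 ± 14 CPM, a log2 fold change of 0.54 (SE 0.12, edgeR adjusted p = 0.0274). Platelet markers had a median log2 fold change of −0.45 between late and early ND, with 5 of 5 tested below 0 and none called. Their summed CPM was 1362 to 1912 after late ND, 1623 to 3326 after early ND and 1609 to 2572 in untreated mice, with Gp1bb at 0 counts in every library. What part platelets play in Itga2 and Cd226 was not tested. Leaving out each mouse in turn ended the call of Itga2 in 0 of 10 fits, of Jak3 in 5 and of Cd226 in 8. Without early ND 3 the calls among the list genes numbered 16, 7 higher and 9 lower. Over all 13676 genes tested in that fit, 1057 were called higher and 553 lower. Without the libraries poor in 18S no gene of the lists was called, and under library totals the log2 fold changes were −0.10 for Itga2, 0.16 for Cd226 and 1.35 for Jak3, beside the median of all genes given above.

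By role, the differences between late and early ND went in both directions. Of 28 genes for NK cell receptors, 26 were tested, with a median of −0.20 and 19 below 0. At an unadjusted p under 0.05 in edgeR, 2 of these were higher and 6 lower, against 14.4% and 9.33% of all genes tested. The 14 granule genes, 11 of them tested, had a median of −0.15, and Srgn, which encodes the granule proteoglycan serglycin and is abundant in myeloid cells, had a log2 fold change of 0.21 (edgeR adjusted p = 0.625). Ctsc, the cathepsin C gene, had the smallest p of the granule genes outside the 10 but was not called. It was 99.5 ± 35.9 CPM after early ND and 143 ± 27.9 after late ND (SD, n = 5). Leaving out each mouse in turn gave Ctsc log2 fold changes of 0.44 to 0.78, with edgeR adjusted p of 0.0413 to 0.347. Adaptors and signaling genes, 12 in all, had a median of 0.13, with 5 higher and 1 lower at an unadjusted p under 0.05, against 14.4% and 9.33% of all genes tested. Among these, Syk, a kinase shared with B and myeloid cells, was at 0.35 (edgeR adjusted p = 0.153) and Vav1, an exchange factor downstream of many immune receptors, at 0.47 (edgeR adjusted p = 0.0663). Of 10 transcription factors 9 were tested, with a median of 0.06. Nfil3, a factor needed for NK cell development that is also expressed in myeloid cells, had the largest value, 1.05 (edgeR adjusted p = 0.0712), and Ikzf3, a lymphoid zinc finger factor, was at −0.35 (edgeR adjusted p = 0.236). Cytokines made by the cells were represented by 4 tested genes of 6, with Ccl5 at 0.27 (edgeR adjusted p = 0.540) and Tnf at 0.55 (edgeR adjusted p = 0.271), whereas Ifng was too low to test, with 3, 11 and 15 counts summed over the 5 untreated, early ND and late ND libraries. Cytokines and receptors that sustain these cells, 12 tested of 13, had a median of 0.07, with Il18rap, a chain of the interleukin-18 receptor, at 0.52 (edgeR adjusted p = 0.219). Of 8 receptor ligands 6 were tested, with a median of 0.03, H2-T23, the Qa-1 ligand of CD94 and NKG2A, at 0.08 (edgeR adjusted p = 0.784) and Ulbp1, a ligand of NKG2D, at −0.39 (edgeR adjusted p = 0.331). Neutrophil markers in the same comparison had a median of 1.06, with 8 of 10 above 0 and summed levels given above. Of these markers, 7 were higher at an unadjusted p under 0.05 in edgeR and 1 was called higher. What part they play in the genes shared with myeloid cells was not tested.

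**Figure D5:**
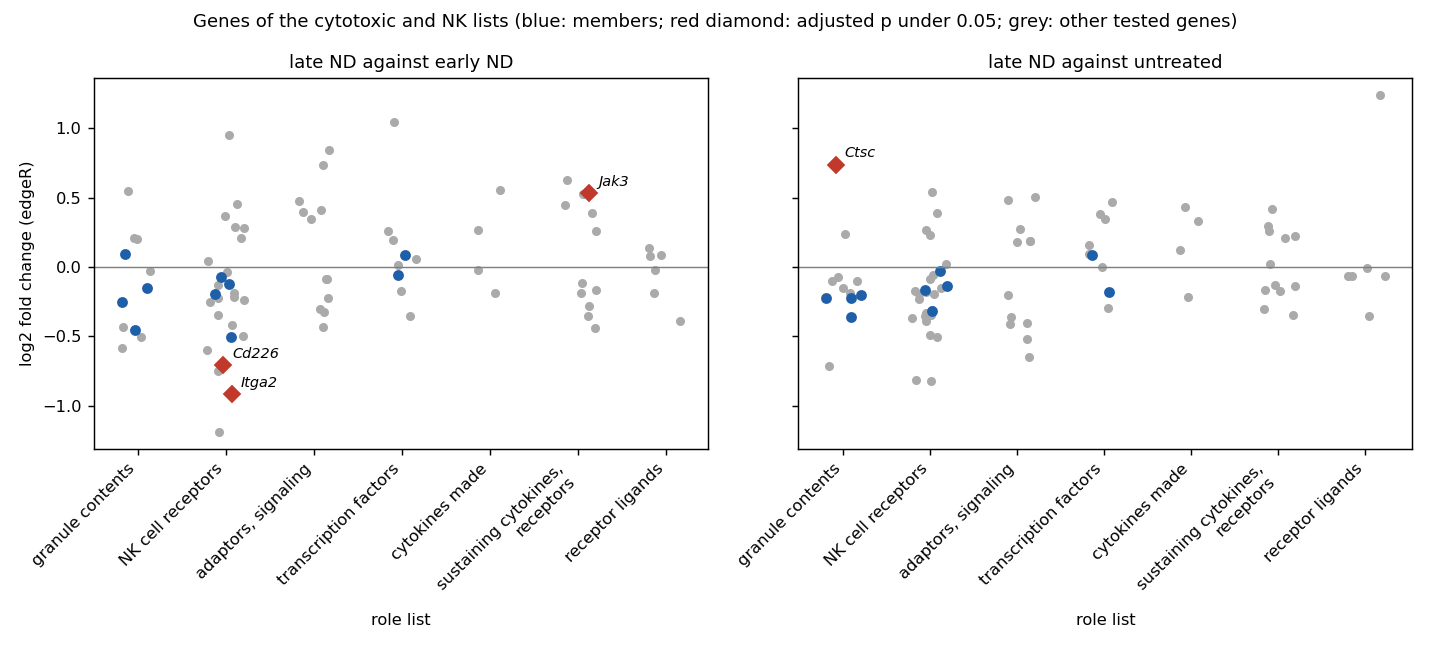
Log2 fold changes from edgeR of the genes of 7 role lists that were tested, for late against early ND (left, 80 genes) and late ND against untreated (right, 82 genes); blue points are the 10 genes, red diamonds genes at an adjusted p under 0.05. The 10 genes lie between −0.51 and 0.10 on the left and between −0.36 and 0.09 on the right.

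Against untreated mice, 82 of the 91 genes were tested for late ND, with a median of −0.13. Ctsc was called higher and no gene lower, against 0.989% and 2.01% of all genes tested. Ctsc encodes cathepsin C, which activates granzymes and also the serine proteases of neutrophils and other myeloid cells. It was 85.7 ± 13.9 CPM in untreated and 143 ± 27.9 after late ND (SD, n = 5), a log2 fold change of 0.74 (SE 0.16, edgeR adjusted p = 0.0293), with all 5 late ND mice above every untreated mouse. Of all genes tested, 2.51% had late ND wholly higher, with TMM over the libraries compared. Leaving out each mouse in turn ended the Ctsc call in 9 of 10 fits. Monocyte markers had a median log2 fold change of 0.34 in the same comparison, with 2 of 7 called higher and summed CPM of 608 to 908 after late ND and 364 to 614 in untreated mice, and what part they play was not tested. The granzymes and perforin that cathepsin C acts beside lay below 0, with Gzma at −0.20 (edgeR adjusted p = 0.614), Gzmb at −0.36 (edgeR adjusted p = 0.476) and Prf1 at −0.22 (edgeR adjusted p = 0.613). The gene called depended on the fit. With a fit over all 15 libraries Ctsc was not called, and Lat, of the adaptor and signaling list, was called lower. Lat was at −0.52 there (edgeR adjusted p = 0.0338). Its level was 72.2 ± 12.9 CPM in untreated and 50.3 ± 3.06 after late ND (SD, n = 5). Between early ND and untreated mice 74 of the 91 genes were tested and none was called by edgeR, with 1 higher and 3 lower at an unadjusted p under 0.05, against 2.11% and 2.33% of all genes tested, and none called by DESeq2.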

How the data were processed

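Blood was drawn from the cheek into capillary collection tubes, freed of clots and then moved into TRIzol. RNA was sequenced as paired 150-base reads. Per the labels, the authors aligned reads with STAR 2.7.9 to GRCm39 (their processing notes also name mm10), sorted them with SAMtools 1.7 and deposited the whole-number counts of HTSeq 0.13.5 per gene, unnormalized. The strand setting and annotation release are not given in the sources used here. Uniquely aligned pairs counted to genes were 43.6% to 48.0% of all unique ones, and the 5 counters at the end of each file were left out. Of 55416 identifiers, 54749 matched GENCODE M39, which gave symbols, coordinates and exon lengths.

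Groups came from titles, treatment and surgery labels. Counts were analysed in R 4.3.3 with edgeR 4.0.16, in 1 fit per pair of groups (filterByExpr, TMM, quasi-likelihood F test, Benjamini-Hochberg over all genes tested, threshold 0.05). SEs were taken from the F statistic and intervals of 95% from its degrees of freedom. The p of Tbx21 between late and early ND was set by edgeR's bound at counting error. CPM levels used TMM over all 15 libraries, log2 CPM a prior count of 2. Counting CVs cover counting error only. The code was tested on simulated counts: of 200 genes changed by 2 on the log2 scale, it recovered 200 with 7 false calls for late against early ND, 199 with 9 for late ND against untreated and 200 with 12 for early ND against untreated. The simulation gave all genes the same spread and all libraries the same composition, and changed no genes with low counts. Recovery of smaller changes, of genes with low counts or under the differing hemoglobin shares was thus not tested.

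The 10 genes and all lists were chosen with earlier results of these data known. The text names the 10 genes, list genes that were called (up to 8 per comparison), the gene of each role with the highest CPM and with the smallest p between the ND groups, and the 5 genes most like the mean of the 10. Lat is named as well, as a gene called only in alternatives. Alternatives were other library scalings, DESeq2 1.42.0, other filters, a fit over all 15 libraries, omission of the 18S-poor libraries, a replicate block and omission of each mouse. The lists held 149 symbols, of which 148 were found.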

Additional observations from a re-analysis of the deposited data

Results flagged for a closer look

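Among 30 sets of 5 mice (10 genes in 3 groups), 1 held a mouse that stood apart from the rest of its group by Dixon's test at 95%, which chance gives in about 1 of 20 such sets. Nkg7, the granule membrane protein gene, was at 16.2 CPM in late ND 5, whereas the other late ND mice had 21.1 to 22.9 CPM. The gap took 0.725 of the range of the group, against a critical value of 0.71.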

How the results depend on the processing

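The count of the 10 genes called was 0 in each comparison and stayed 0 under every alternative, except between late and early ND with library totals (3, all higher), DESeq2 (1) and omission of early ND 3 (2), and between late ND and untreated with library totals (1). Leaving out each mouse gave 0 to 2 called of the 10 between late and early ND and 0 in both comparisons against untreated. Of the 91 list genes, the 3 called between late and early ND became 40 with library totals, 10 with DESeq2, 8 with no filter and 0 without the 18S-poor libraries, and 1 to 16 with each mouse left out, the highest without early ND 3 and 1 without early ND 4 or any of late ND 1, 3, 4 and 5. The 1 called between late ND and untreated became 2 with median-of-ratios factors, 34 with library totals, 2 with hemoglobin and 18S out of the library sizes, 6 with DESeq2, 2 with at least 10 counts in every library, 0 without the 18S-poor libraries and 0 to 2 with each mouse left out, 2 without untreated 5 and 0 without any other. Lat, lower, was the added call with median-of-ratios factors, with hemoglobin and 18S out and with at least 10 counts. It was also among the DESeq2 calls. In the fit over all 15 libraries the count stayed 1, but the gene was Lat and not Ctsc. Over all genes, the 663 calls between late and early ND became 9045 with library totals, 1439 with DESeq2, 1282 with no filter, 4 without the 18S-poor libraries and 145 to 1610 with each mouse left out. The 406 between late ND and untreated became 7553 with library totals, 808 with DESeq2, 0 without the 18S-poor libraries and 0 to 593 with each mouse left out, and the 0 between early ND and untreated became 3 with library totals. The cause of these changes was not tested. Fits without the 18S-poor libraries, untreated 2, late ND 2 and late ND 3, also had fewer mice.

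Library totals turned the sign between late and early ND for Gzma (0.57), Gzmb (0.37), Prf1 (0.67), Klrb1c (0.72), Ncr1 (0.35), Klrk1 (0.58), Klrd1 (0.75), Eomes (0.73), Cd226 (0.16), Ikzf3 (0.51) and Ulbp1 (0.46). It also did so between late ND and untreated for Gzma (0.73), Gzmb (0.59), Prf1 (0.70), Nkg7 (0.69), Klrb1c (0.84), Ncr1 (0.83), Klrk1 (0.61), Klrd1 (0.73), Eomes (0.82), Itga2 (0.49) and Cd226 (0.40), and between early ND and untreated for Prf1 (0.025), Klrk1 (0.028) and Eomes (0.088). No filter turned Klrd1 (0.011) and Eomes (0.024) between late and early ND and Klrb1c (0.020) between late ND and untreated. Without the 18S-poor libraries Nkg7 was at −0.024 between late and early ND and Klrd1 at 0.014 between early ND and untreated.

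With each mouse left out, signs also turned among small values. Between late and early ND the ranges of log2 fold change were −0.34 to 0.062 for Klrb1c, −0.30 to 0.030 for Klrk1, −0.20 to 0.077 for Klrd1, −0.21 to 0.19 for Eomes and −0.0043 to 0.21 for Tbx21. Between late ND and untreated they were −0.17 to 0.086 for Klrb1c, −0.22 to 0.0046 for Ncr1, −0.35 to 0.042 for Eomes and −0.098 to 0.21 for Tbx21. Between early ND and untreated they were −0.10 to 0.19 for Gzma, −0.0015 to 0.28 for Gzmb, −0.17 to 0.12 for Prf1, −0.063 to 0.33 for Klrb1c, −0.33 to 0.18 for Klrk1, −0.23 to 0.087 for Klrd1, −0.36 to 0.11 for Eomes, −0.16 to 0.14 for Tbx21 and −0.015 to 0.31 for Ctsc.

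Over all alternatives with TMM or like scaling, Gzmb between late and early ND ranged from −0.55 to −0.37 and Ncr1 from −0.69 to −0.39, with adjusted p of 0.0415 to 0.183 and 0.0143 to 0.366 when each mouse was left out. The labels do not say that replicate numbers pair the mice, and no comparison had all 5 same-numbered pairs over 0.1 in correlation (1 of 5 between late and early ND, 4 of 5 between late ND and untreated, 0 of 5 between early ND and untreated). Correlations of same-numbered deviations averaged −0.00985 between late and early ND, 0.243 between late ND and untreated and −0.120 between early ND and untreated, and 1, 3 and 0 of the 5 mice correlated best with their own number. The replicate block left 0 of the 10 genes called in each comparison, gave 4 list genes between late and early ND, 2 between late ND and untreated and 0 between early ND and untreated, moved the calls over all genes from 663 to 673, from 406 to 607 and from 0 to 0, and set Klrb1c at 0.029 between late ND and untreated. The untreated and early ND libraries, the shallower groups, held 8 to 138 counts each for Klrb1c and Gzmb.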
